A study of Mus musculus with 78 samples.

Results

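The genes described here are 7 markers of resident-type tissue macrophages (Lyve1, Mrc1, Cd163, Folr2, F13a1, Cbr2 and Pf4) and 3 genes used as markers of lymphatic endothelium (Prox1, Pdpn and Flt4), followed through both common carotid arteries of mice after partial ligation of the left one. They were taken by name, with earlier results of these data known. Each was represented by the probe set annotated to that 1 symbol with the highest mean over the 78 arrays. All 10 had such a probe set, among 17097 genes with 1, and 9 of the 10 were among the 11344 genes bright enough to be tested. Prox1 was not, because it lay above the array median on 0 of 78 arrays.

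Macrophages that live in the wall and the adventitia of arteries are commonly recognised by the hyaluronan receptor LYVE1, the mannose receptor CD206 (Mrc1) and the haemoglobin scavenger receptor CD163, together with the folate receptor Folr2 and the transglutaminase F13a1. Monocyte-derived macrophages that enter an injured artery share pan-macrophage genes with them but are generally poor in LYVE1. LYVE1 is also a marker of lymphatic endothelium, whose identity depends on the transcription factor PROX1 and whose growth runs through the VEGF-C receptor VEGFR3 (Flt4); podoplanin (Pdpn) marks lymphatic endothelium too, but is also made by fibroblasts and some inflammatory macrophages.

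The study operated on the left common carotid artery (LCA) of every mouse, which leaves it with low and disturbed flow, and kept the right common carotid artery (RCA) of the same mouse as its unoperated control. Mice received atorvastatin, an inhibitor of cholesterol synthesis, at 10 mg/kg/day by mouth, or vehicle, from 2 days before surgery. RNA was flushed from the lumen of each artery to enrich for endothelium, at 12 h, 24 h, 48 h or 2 weeks after ligation, and 1 array was run per artery. There were 39 mice, 5 in each combination of treatment and time and 4 under atorvastatin at 48 h, numbered 6 to 10 with atorvastatin and 1 to 5 with vehicle. The labels read here name no strain, genotype, sex or age. They speak of 4 extraction and profiling batches but not of which mouse was in which, so batch could not be tested.

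All values below are log2 expression values as deposited, and a difference is the LCA value minus the RCA value of the same mouse unless another is named. A gene is said to have risen or fallen where limma, fitted across all 11344 tested genes, gave a Benjamini-Hochberg adjusted p under 0.05. Array medians lay between 4.59 and 4.77. The endothelial genes Cdh5, Pecam1, Tek and Vwf averaged 10.96 to 11.62 and exceeded the median on all 78 arrays. Of the other endothelial genes listed, Erg averaged 11.27, and Tie1, Emcn and Cldn5 averaged 9.13 to 9.38, also above the median on all 78. Kdr was much dimmer, with a mean of 5.01, and exceeded the median on 54 arrays. The RNA was a mixture, so that fewer cells of a type and less RNA per cell cannot be told apart.

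The macrophage genes did not share one pattern after ligation. Lyve1 was lower in the LCA at 24 h and 2 weeks in both treatments and had its lowest mean there at 2 weeks, whereas Mrc1 and Pf4 were several-fold higher in the LCA than in the RCA at 2 weeks. Cbr2 was lower in the LCA at 24 h and 48 h, F13a1 was higher at 48 h under atorvastatin, and Cd163 and Folr2 differed between the arteries at no time by this test. The 48 h calls of Cbr2 and F13a1 under atorvastatin were each lost in 2 of 7 other settings, and that of Cbr2 under vehicle in 1 of 8. Of the lymphatic genes, Prox1 was at background throughout, Flt4 was bright and fell at 2 weeks in the ligated artery of mice on vehicle, and Pdpn passed the test at 48 h under atorvastatin, a call lost in 5 of 7 other settings.

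**Figure D1:**
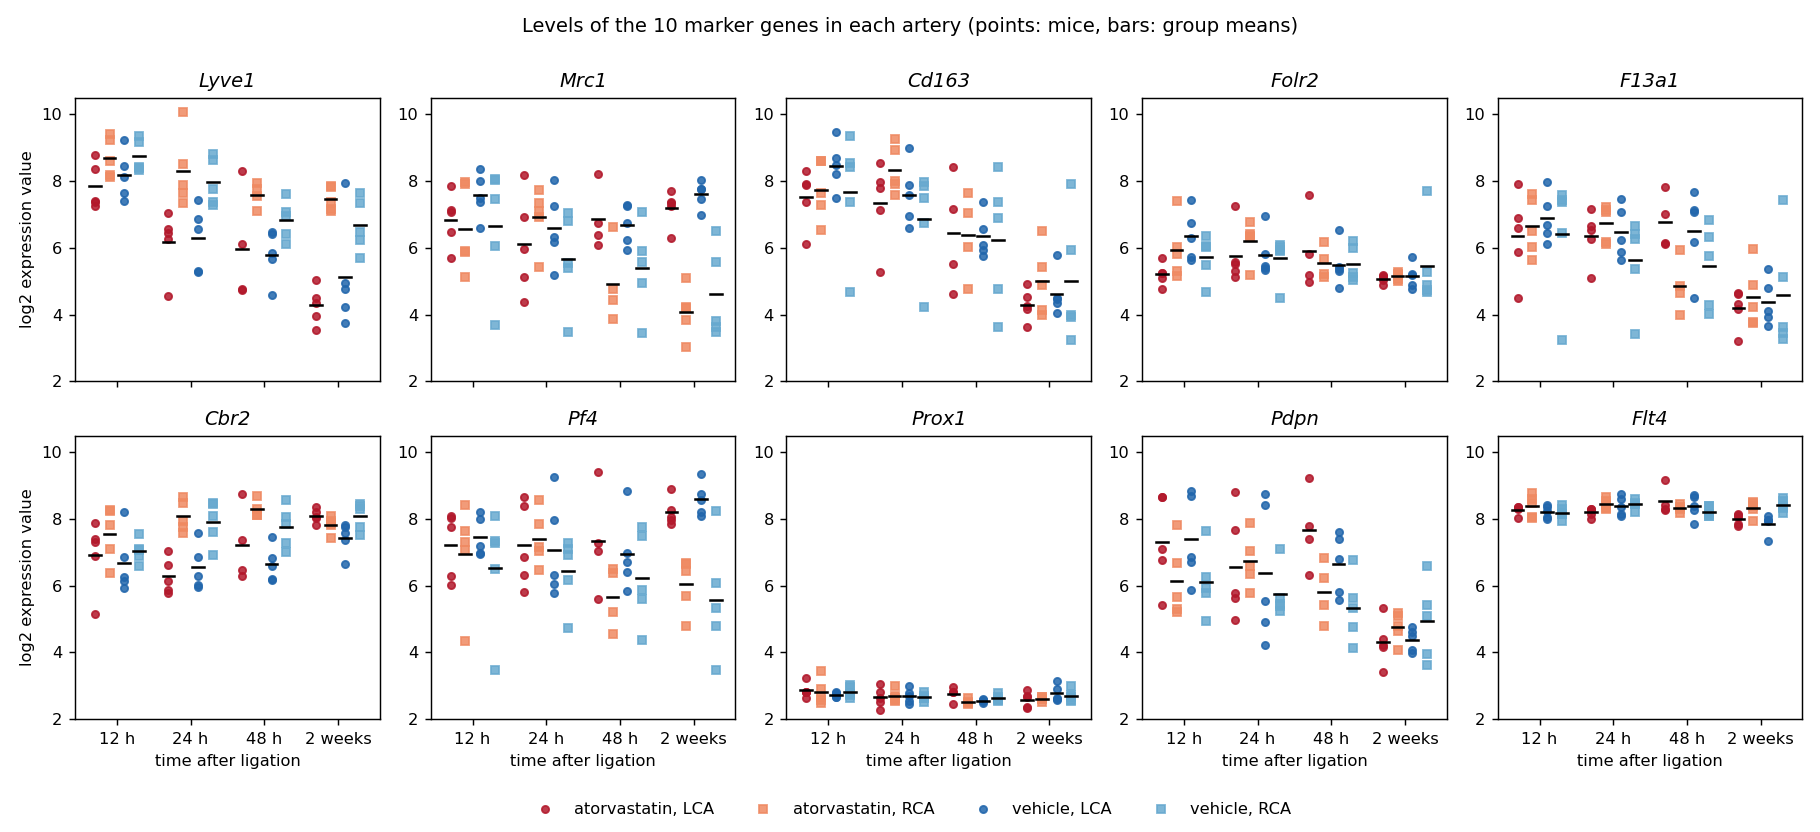
Log2 expression values of the 10 genes (y axis, the same scale in every panel) at each time after ligation (x axis), 1 point per mouse and artery, with circles for LCA and squares for RCA, dark red and orange for atorvastatin, dark and light blue for vehicle, and black bars for group means. Lyve1 at 2 weeks averaged 4.28 in the LCA and 7.46 in the RCA under atorvastatin, the reverse order of Mrc1 (7.19 in the LCA and 4.08 in the RCA), while Prox1 stayed between 2.27 and 3.45.

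At 12 h, 0 of the 9 tested members differed between the arteries in either treatment, where 1.68% of all tested genes did so under atorvastatin and 2.39% under vehicle. Without adjustment, 1 member under atorvastatin and 0 under vehicle had a p under 0.05. At 24 h, when 13.1% of tested genes changed under atorvastatin and 14.3% under vehicle, 2 members fell and 0 rose in each treatment, against 5.8% of genes that fell and 7.29% that rose under atorvastatin, and 7.09% that fell and 7.19% that rose under vehicle. Both were the same genes, Lyve1 and Cbr2.

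At 48 h, 3 members rose (Mrc1, F13a1 and Pdpn) and 2 fell (Lyve1 and Cbr2) under atorvastatin, where 31.8% of tested genes changed (16.6% rose and 15.2% fell). Under vehicle 1 member fell (Cbr2) and 0 rose, where 36.2% of genes changed (15.4% fell and 20.8% rose). At 2 weeks, 2 rose (Mrc1 and Pf4) and 1 fell (Lyve1) under atorvastatin, where 29.9% of genes changed (14.5% rose and 15.4% fell). Under vehicle the same 2 genes rose and 2 fell (Lyve1 and Flt4), where 27.8% of genes changed (15.5% rose and 12.3% fell). With 9 genes, these counts are set beside the shares without a test, and the individual genes and their sizes are described below. When only the 4 mice of the 48 h atorvastatin group were fitted, 0 of the 5 members passed there.

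**Figure D2:**
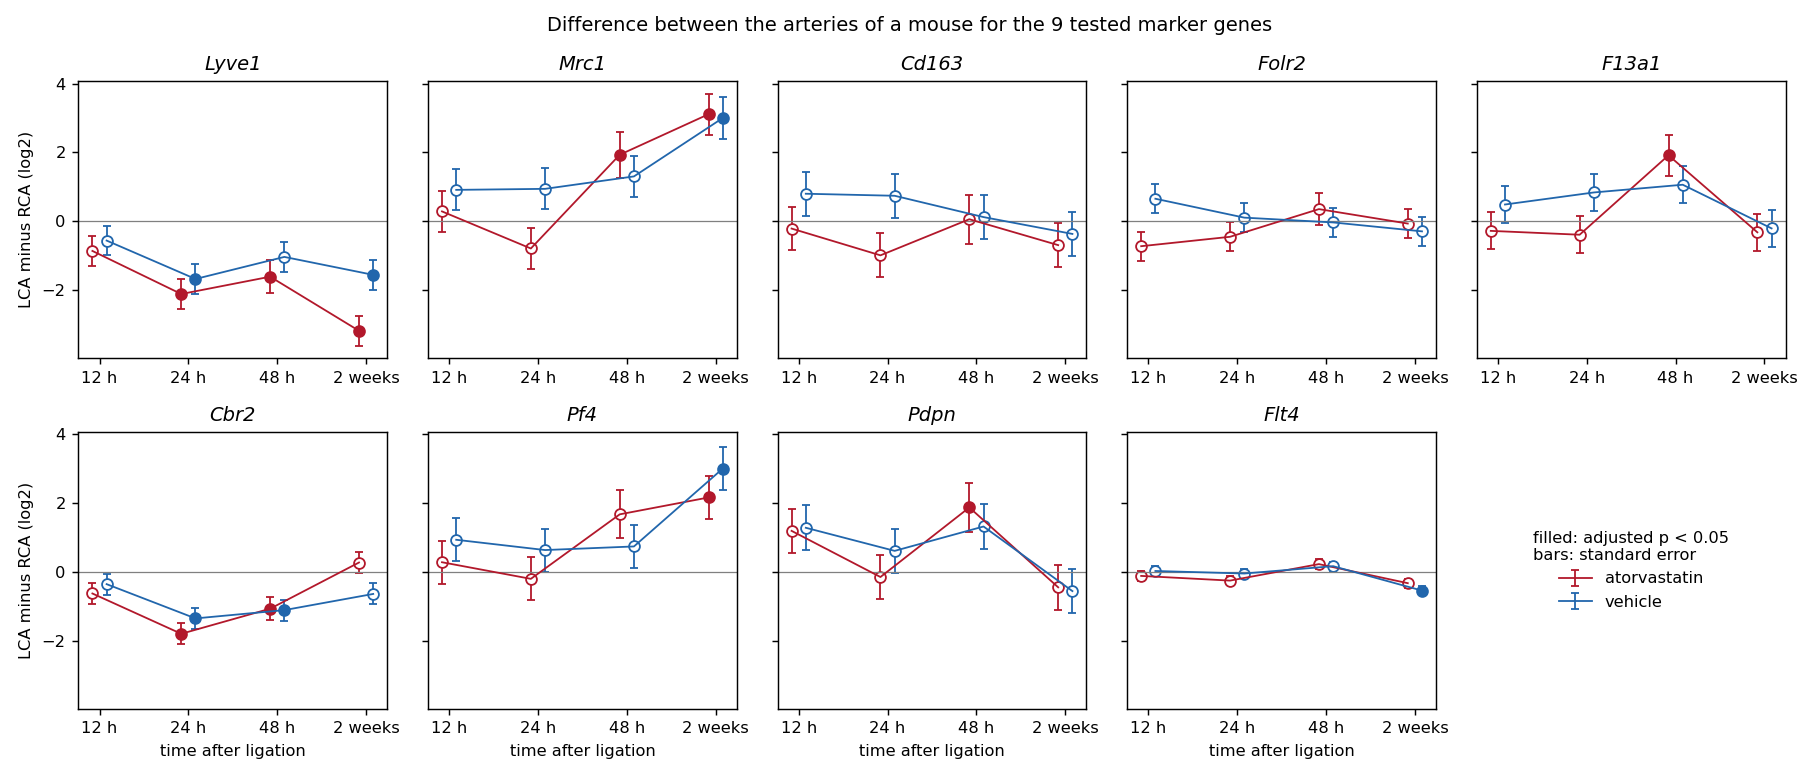
Mean LCA minus RCA difference on the log2 scale (y axis) at each time after ligation (x axis) for the 9 tested genes, red for atorvastatin and blue for vehicle, with bars for the standard error of the fit and filled points for an adjusted p under 0.05. The Lyve1 means lie below 0 at every time, the Mrc1 and Pf4 means climb above 2 at 2 weeks, and the Flt4 means stay between -0.55 and 0.22.

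Lyve1, which binds hyaluronan on macrophages and lymphatic endothelium, gave the lowest adjusted p of the 10 genes. At 2 weeks under atorvastatin it read 3.96, 4.34, 5.04, 3.54 and 4.50 in the LCA of mice 6 to 10, against 7.12, 7.38, 7.85, 7.82 and 7.15 in their RCA. Every LCA value lay below every RCA value, one of 3 members whose arteries did not overlap in that group, where 27.4% of tested genes did not. The difference was -3.19 (SE 0.43, n = 5, limma adjusted p = 3.36e-07), which is 9.10-fold lower in the LCA.

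Under vehicle at 2 weeks Lyve1 read 3.74, 7.94, 4.95, 4.77 and 4.22 in the LCA of mice 1 to 5, against 5.71, 7.64, 7.36, 6.25 and 6.46 in their RCA. In 4 of the 5 mice the LCA was lower, and mouse 2 was the exception, with an LCA value above that of every other LCA of the group. The difference was -1.56 (SE 0.43, adjusted p = 0.00561), or 2.95-fold lower in the LCA. Mouse 2 also stood apart in its smooth muscle genes, whose mean LCA minus RCA difference was -0.14 in that mouse and 2.62 to 4.04 in the other 4. Without mouse 2 and a vehicle mouse of the 48 h group that stood apart, a pair left out after seeing the data, the Lyve1 difference at 2 weeks was -2.02.

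The fall was already present at 24 h. Lyve1 then read 4.56, 7.05, 6.44, 6.57 and 6.28 in the LCA of mice 6 to 10 under atorvastatin, against 7.35, 8.53, 7.88, 10.08 and 7.66 in their RCA, and the arteries did not overlap. Vehicle mice had 7.42, 5.27, 5.31, 6.55 and 6.86 in the LCA, against 7.27, 7.36, 7.75, 8.82 and 8.62 in the RCA, with overlap because mouse 1 showed almost no difference (0.15). The differences were -2.12 (SE 0.43, adjusted p = 0.000931) under atorvastatin and -1.68 (SE 0.43, adjusted p = 0.00731) under vehicle. By the other Lyve1 probe set, which followed the first over the 78 arrays with r = 0.964, the vehicle difference at 24 h was -1.31 with an adjusted p of 0.0657.

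At 48 h the Lyve1 difference was -1.61 (SE 0.48, n = 4, adjusted p = 0.00971) under atorvastatin, with LCA values of 4.76, 6.13, 8.29 and 4.74 in mice 6 to 9, against RCA values of 7.94, 7.11, 7.78 and 7.55. Mouse 8 ran the other way, and the 4 LCA values spanned the whole RCA range. Without mouse 6 the adjusted p was 0.156, without mouse 9 it was 0.116, and by the other probe set it was 0.05. Under vehicle the difference was -1.04 (SE 0.43, adjusted p = 0.0559), lower in 4 of 5 mice. At 12 h it was -0.87 under atorvastatin and -0.56 under vehicle, and neither passed the test.

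Cbr2, a carbonyl reductase found in lung and in tissue-resident macrophages, was the other gene lower in the LCA at 24 h. Under atorvastatin it read 5.87, 7.04, 6.61, 5.78 and 6.13 in the LCA of mice 6 to 10, against 7.95, 8.67, 7.75, 7.58 and 8.49 in their RCA. No LCA value reached the lowest RCA value, and the difference was -1.80 (SE 0.31, adjusted p = 0.000119). Lyve1 and Cbr2 were the members whose arteries did not overlap there, where 10.7% of tested genes did not. Under vehicle at 24 h Cbr2 had 7.57, 5.97, 6.04, 6.86 and 6.31 in the LCA, against 8.08, 7.61, 8.47, 6.93 and 8.44 in the RCA of mice 1 to 5, lower in all 5 mice though mouse 4 differed little. That difference was -1.35 (SE 0.31, adjusted p = 0.00254), and 0 members were free of overlap in this group, against 12.6% of tested genes.

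At 48 h Cbr2 was still lower in the LCA, by -1.07 (SE 0.34, n = 4, adjusted p = 0.0153) under atorvastatin and by -1.11 (SE 0.31, adjusted p = 0.00442) under vehicle. The vehicle fall held in 5 of 5 mice, but with the number in the leading code of the sample titles, whose meaning the labels do not give, as a block it was -0.82 with an adjusted p of 0.0972. Under atorvastatin mouse 8 again ran the other way (0.64), and the adjusted p was 0.17 without mouse 6 and 0.113 without mouse 9. By 2 weeks the differences were 0.27 under atorvastatin, with 4 of 5 mice higher in the LCA, and -0.64 under vehicle (adjusted p = 0.117), with 4 of 5 lower. With the title code block the vehicle difference at 2 weeks was -1.11 and passed the test (adjusted p = 0.0234). The change of the Cbr2 difference between 48 h and 2 weeks was 1.34 under atorvastatin (adjusted p = 0.0612) and 0.47 under vehicle (adjusted p = 0.585), so neither passed the test.

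Mean RNA quality also differed between the arteries at 24 h. The log2 ratio of the 3′ to the 5′ control probe sets of Gapdh, which is higher where RNA is less intact, averaged 4.56 ± 0.29 for LCA and 4.10 ± 0.20 for RCA arrays under atorvastatin, and 4.97 ± 0.47 for LCA and 4.04 ± 0.24 for RCA arrays under vehicle (SD, n = 5 each). Within mice the LCA minus RCA difference of this ratio at 24 h ran from -0.23 to 0.74 under atorvastatin and from 0.41 to 1.68 under vehicle. The LCA had 3.98 ± 0.34 and the RCA 3.96 ± 0.33 at 2 weeks under atorvastatin, with 4.0 ± 0.46 in the LCA and 3.81 ± 0.28 in the RCA under vehicle. At 12 h the means were 4.87 for LCA and 4.21 for RCA arrays under atorvastatin and 4.82 for LCA and 4.74 for RCA arrays under vehicle. At 48 h they were 3.97 for LCA and 3.81 for RCA arrays under atorvastatin and 3.95 for LCA and 4.33 for RCA arrays under vehicle. The part of RNA quality in the results of Lyve1 and Cbr2 was not tested.

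Mrc1, the mannose receptor that clears glycoproteins and is induced in alternatively activated macrophages, went the opposite way at 2 weeks. Under atorvastatin it read 7.72, 7.25, 7.38, 7.33 and 6.29 in the LCA of mice 6 to 10, against 4.21, 4.23, 5.09, 3.04 and 3.85 in their RCA. Vehicle mice 1 to 5 had 7.78, 8.03, 6.98, 7.46 and 7.76 in the LCA, against 3.64, 5.58, 6.51, 3.48 and 3.80 in the RCA. The arteries did not overlap in either treatment, and mouse 3 of the vehicle group showed the smallest difference (0.48). The differences were 3.11 (SE 0.60, adjusted p = 9.73e-05), or 8.63-fold higher in the LCA, under atorvastatin and 3.0 (SE 0.60, adjusted p = 0.000187), or 8.0-fold, under vehicle. Mrc1 and Flt4 were the members without overlap under vehicle at 2 weeks, where 20.3% of tested genes had none.

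Pf4, which encodes platelet factor 4, a chemokine of platelets that some tissue macrophages also make, was likewise higher in the LCA at 2 weeks. Under atorvastatin at 2 weeks it read 8.91, 8.07, 7.97, 8.26 and 7.84 in the LCA of mice 6 to 10, against 5.68, 6.46, 6.65, 6.67 and 4.78 in their RCA. Under vehicle it read 8.21, 9.35, 8.08, 8.56 and 8.74 in the LCA of mice 1 to 5, against 3.49, 6.08, 8.23, 4.80 and 5.34 in their RCA. There was no overlap under atorvastatin, and under vehicle only mouse 3 was not higher in the LCA (-0.14). The differences were 2.16 (SE 0.63, adjusted p = 0.00773) under atorvastatin and 3.0 (SE 0.63, adjusted p = 0.000332) under vehicle.

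Other platelet and megakaryocyte genes did not share one direction at 2 weeks. Of 9 listed, 8 had a probe set and 5 were tested, and Gp1bb, Gp1ba, Gp6 and Treml1 were not. Under atorvastatin 1 rose, the integrin subunit Itgb3 (1.96), and 1 fell, the platelet chemokine Ppbp (-1.01), where 14.5% of tested genes rose and 15.4% fell. Under vehicle Itgb3 (2.15) and the podoplanin receptor Clec1b (1.36) rose, and the von Willebrand receptor subunit Gp9 (-0.39) fell. Among all tested genes 15.5% rose and 12.3% fell in that group. The mean level over the list ran from 5.25 to 5.45 in the LCA and 5.10 to 5.54 in the RCA under atorvastatin, which overlap, and from 5.50 to 5.83 in the LCA and 4.88 to 5.51 in the RCA under vehicle, which barely do. At 48 h 2 of the 5 rose and 0 fell in each treatment. They were Ppbp (1.28 under atorvastatin and 1.38 under vehicle) and Itgb3 (1.23 under atorvastatin and 1.14 under vehicle). Of all tested genes 16.6% rose and 15.2% fell at that time under atorvastatin, and 20.8% rose and 15.4% fell under vehicle. The part of platelet RNA in the Pf4 result was not tested.

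Because Mrc1 and Pf4 rose together, their promoter windows are shown, taken from RefSeq on GRCm38.p6 and running from 250 bases before to 50 bases after the annotated start. Capitals mark the letters GAGGAA, the core of the sites bound by the macrophage transcription factor PU.1, which here lie on the opposite strand and therefore print as TTCCTC. The Mrc1 window is chr2:14229164-14229463 and the Pf4 window chr5:90772185-90772484, both on the plus strand.
Mrc1: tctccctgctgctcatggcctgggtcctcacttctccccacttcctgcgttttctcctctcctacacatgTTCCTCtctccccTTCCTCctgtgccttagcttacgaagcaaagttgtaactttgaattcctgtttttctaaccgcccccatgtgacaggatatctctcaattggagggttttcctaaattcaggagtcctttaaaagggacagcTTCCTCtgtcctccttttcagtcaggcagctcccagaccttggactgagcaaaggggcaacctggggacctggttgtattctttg
Pf4: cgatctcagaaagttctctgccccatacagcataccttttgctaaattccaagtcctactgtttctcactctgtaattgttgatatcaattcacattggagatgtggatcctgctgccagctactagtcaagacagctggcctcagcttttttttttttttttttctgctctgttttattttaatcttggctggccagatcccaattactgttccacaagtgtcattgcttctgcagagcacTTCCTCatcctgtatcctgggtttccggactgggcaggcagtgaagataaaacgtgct
The matches start 180, 167 and 35 bases before the start of Mrc1 and 8 bases before that of Pf4. The same 6 letters, on either strand, were found in 28.3% of 32851 mouse windows of this length, so a match is common. Of the 10 members 9 had a window, 12 windows in all, and Lyve1 had none and was not searched. GAGGAA was in 7 of the 12 windows, those of 5 genes: Prox1, Mrc1, Pf4, Cbr2 and F13a1. With so few windows this count was not tested against the share. Searched on both strands, the MAF half-site TGCTGA, in 19.5% of windows, was found for Folr2 and Cbr2, and the AP-1 site TGACTCA, in 5.2%, for Folr2. The E-box CACGTG, in 7.15%, was found for Pdpn and TATAAA, in 13.6%, for Prox1. The STAT site TTCCTGGAA, in 0.807% of windows, matched 0 of the 12. None of the 6 motifs contains another, and a match describes letters, not binding.

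F13a1, the A chain of the clotting transglutaminase factor XIII and abundant in monocytes and resident macrophages, peaked in the difference at 48 h. Under atorvastatin it read 7.01, 6.13, 7.81 and 6.14 in the LCA of mice 6 to 9, against 5.95, 4.64, 4.86 and 3.99 in their RCA. It was the one member without overlap in that group, where 16.7% of tested genes had none. The difference was 1.92 (SE 0.60, n = 4, adjusted p = 0.014), and the adjusted p was 0.0911 without mouse 8 and 0.0636 without mouse 9. With the title code block the limma adjusted p was 0.131, and it was 0.0513 when only the group compared was fitted. Under vehicle the difference was 1.06 (adjusted p = 0.122), higher in the LCA of 5 of 5 mice, and 0 members were without overlap, against 12.4% of tested genes.

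Mrc1 also rose at 48 h under atorvastatin, with LCA values of 6.07, 6.39, 8.22 and 6.74 in mice 6 to 9, against RCA values of 6.64, 4.45, 4.76 and 3.86. Mouse 6 was the one mouse lower in the LCA, and its RCA value lay within the LCA range. The difference was 1.93 (SE 0.67, adjusted p = 0.0255), and the adjusted p was 0.0504 without mouse 7, 0.17 without mouse 8 and 0.145 without mouse 9. Pf4 had differences of 1.67 (adjusted p = 0.0656) under atorvastatin and 0.74 under vehicle at that time.

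Cd163, the scavenger receptor for haemoglobin-haptoglobin, had no difference between the arteries that passed the test. Its differences ran from -0.99 to 0.06 over the 4 times under atorvastatin and from -0.37 to 0.80 under vehicle. The spread between mice was wide: under vehicle at 2 weeks the LCA values of mice 1 to 5 were 4.49, 5.78, 4.34, 4.47 and 4.06, against RCA values of 3.23, 5.93, 7.93, 4.0 and 3.91. Mouse 3 alone, with its RCA value of 7.93, was more than 3 units lower in the LCA (-3.58).

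Folr2, the folate receptor beta of resident macrophages, likewise had no difference that passed the test, with values from -0.73 to 0.35 under atorvastatin and from -0.30 to 0.65 under vehicle. In 2-week atorvastatin mice it was nearly constant, at 5.07 ± 0.12 in the LCA and 5.14 ± 0.11 in the RCA (SD, n = 5 each). F13a1 at 2 weeks differed by -0.32 under atorvastatin and -0.21 under vehicle. In the 2-week vehicle group mouse 3 again stood alone, with RCA values of 7.69 for Folr2 and 7.45 for F13a1, against at most 5.27 and 5.13 in the RCA of the other 4 mice.

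Most pan-macrophage genes rose from 48 h on. Of 16 on that list, all tested, 12 rose and 0 fell at 48 h under atorvastatin, with a median difference of 1.92 against -0.01 over all tested genes. Under vehicle at 48 h 11 rose and 0 fell, with a median of 1.70 against 0.01. At 2 weeks 14 rose and 0 fell under atorvastatin, with a median of 3.66 against -0.03 over all genes. Under vehicle 15 rose and 0 fell, with a median of 4.12 against -0.01. The shares of all tested genes that rose were 16.6% at 48 h and 14.5% at 2 weeks under atorvastatin. Under vehicle these shares were 20.8% at 48 h and 15.5% at 2 weeks. At 24 h 13.1% of all tested genes changed under atorvastatin and 14.3% under vehicle. The 1 gene of the list that changed then was Mertk, the apoptotic cell receptor of resident macrophages. It fell by 0.74 under atorvastatin and 0.73 under vehicle.

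The genes of largest change at 2 weeks included the calcium-binding Aif1 (5.81 under atorvastatin and 6.41 under vehicle), the pore-forming Mpeg1 (5.41 under atorvastatin and 5.90 under vehicle) and the tetraspan protein Ms4a7 (5.43 under atorvastatin and 5.32 under vehicle). Of 9 tested genes of recruited monocytes and inflammatory macrophages 5 rose and 1 fell in each treatment at 2 weeks. Their medians were 1.54 under atorvastatin and 2.05 under vehicle. Of all tested genes 14.5% rose and 15.4% fell under atorvastatin, and 15.5% rose and 12.3% fell under vehicle. Ly6c2, Trem2 and Spp1 of this list were not tested. The risers included the dendritic and macrophage integrin Itgax (4.05 under atorvastatin and 4.78 under vehicle). They also included the monocyte chemokine receptor Ccr2 (3.58 under atorvastatin and 3.68 under vehicle). The 1 that fell was the tetraspanin Cd9 (-0.33 under atorvastatin and -0.39 under vehicle).

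Further resident-type genes, of which 9 could be tested, had medians near 0 at 2 weeks. At 2 weeks 14.5% of all tested genes rose and 15.4% fell under atorvastatin, and 15.5% rose and 12.3% fell under vehicle. Of these 9, 2 rose and 2 fell under atorvastatin (median -0.13), and 2 rose and 0 fell under vehicle (median -0.03). These counts were not tested against the shares. The 2 that rose were the same in both treatments. They were the growth factor Igf1 (2.17 under atorvastatin and 2.39 under vehicle) and the C-type lectin Clec10a (1.90 under atorvastatin and 1.66 under vehicle). Under atorvastatin the TAM receptor ligand Gas6 (-1.13) and the scavenger receptor Stab1 (-0.50) fell. Timd4, Vsig4, Mgl2, Ccl24, Maf and Wfdc17 were not tested. For the 7 macrophage members themselves the 2-week median was -0.07 under atorvastatin and -0.30 under vehicle.

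**Figure D3:**
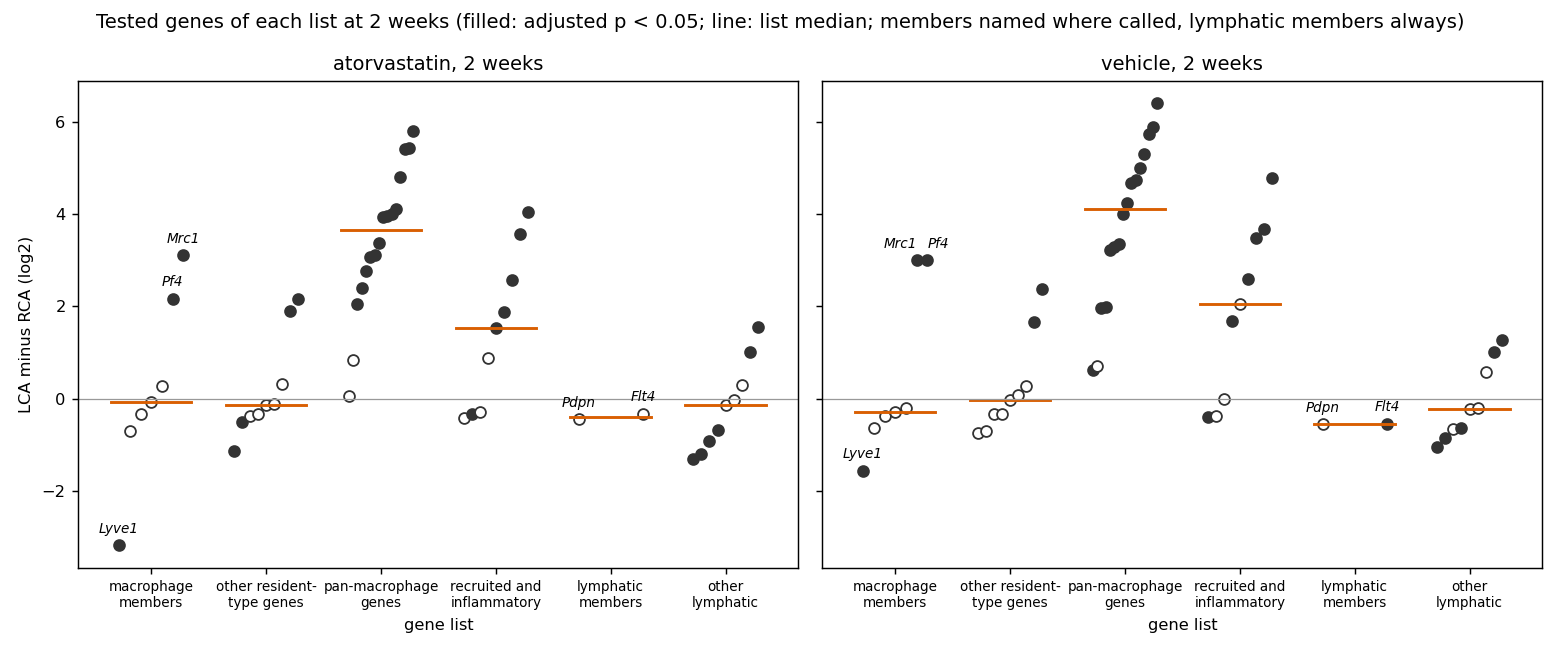
LCA minus RCA difference on the log2 scale (y axis) at 2 weeks of every tested gene in 6 lists (x axis), atorvastatin on the left and vehicle on the right, with filled points for an adjusted p under 0.05 and an orange line for the list median. The pan-macrophage medians of 3.66 and 4.12 lie far above those of the 7 macrophage members (-0.07 and -0.30), in which Mrc1 and Pf4 are high and Lyve1 is low.

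Genes of other cell types moved at the same times. All 4 tested neutrophil genes rose at 48 h in both treatments, with medians of 4.14 under atorvastatin and 4.12 under vehicle. Their mean level in the atorvastatin group was 5.09 to 9.51 in the LCA and 3.29 to 3.75 in the RCA. In the vehicle group it was 3.24 to 9.77 in the LCA and 3.31 to 4.18 in the RCA, which overlap because 1 mouse had a difference of -0.11. All 5 tested smooth muscle genes rose at 2 weeks in both treatments. Their mean level was 9.06 to 10.02 in the LCA and 5.66 to 6.22 in the RCA under atorvastatin, and 5.75 to 9.89 in the LCA and 5.31 to 6.19 in the RCA under vehicle. For comparison, 16.6% of all tested genes rose at 48 h under atorvastatin and 20.8% under vehicle. At 2 weeks 14.5% rose and 15.4% fell under atorvastatin, and 15.5% rose and 12.3% fell under vehicle. Of 8 tested fibroblast genes 3 rose and 3 fell at 2 weeks in each treatment. The part of these cells in the macrophage gene results was not tested.

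Prox1, the transcription factor that specifies lymphatic endothelium, gave no signal above background. Its mean over the 78 arrays was 2.69, its range 2.27 to 3.45, and it stood at percentile 6.70 of all probe sets. The other 2 Prox1 probe sets averaged 2.65 and 2.54. With the filter on low values removed, its differences ran from -0.09 to 0.23 (adjusted p from 0.235 to 0.960), so no difference was detectable at this signal.

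Further lymphatic genes were similarly dim. Reln and Mmrn1 each exceeded the array median on 1 array, Nts on 3 and Stab2 on 0, with means of 3.01 to 3.52, and Ccl21a had no probe set of 1 symbol. The label of lymphatic markers is thus not borne out by the defining gene, and the 3 genes are called by their names below. The LCA minus RCA fall of Lyve1 was measured beside Prox1 values at background in both arteries. No array was of lymphatic tissue, so absent Prox1 expression and an insensitive probe set cannot be told apart. The part of lymphatic endothelium in the Lyve1 result was not tested.

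Flt4, the receptor for VEGF-C on lymphatic and some blood endothelium, was by contrast bright and steady, with a mean of 8.28 and an SD of 0.27 over the 78 arrays. At 2 weeks under atorvastatin it read 8.12, 7.79, 8.06, 8.16 and 7.85 in the LCA of mice 6 to 10, against 8.40, 8.52, 7.93, 8.30 and 8.47 in their RCA. Under vehicle it read 7.98, 7.97, 7.93, 7.35 and 8.08 in the LCA of mice 1 to 5, against 8.32, 8.63, 8.36, 8.17 and 8.55 in their RCA. All 5 vehicle mice were lower in the LCA with no overlap, and 4 of 5 atorvastatin mice were lower.

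The Flt4 difference under vehicle was -0.55 (SE 0.13, adjusted p = 0.00209), a 1.46-fold fall, and under atorvastatin it was -0.33 (adjusted p = 0.061), with an adjusted p of 0.0209 without mouse 8. Its change between 48 h and 2 weeks was -0.71 under vehicle (SE 0.19, adjusted p = 0.0211). For comparison, the pan-endothelial genes at 2 weeks had medians of -0.38 under atorvastatin and -0.33 under vehicle. Of those 9 genes 2 rose and 4 fell under atorvastatin, where the sialomucin Emcn (1.75) and the VEGF receptor Kdr (0.82) rose and the angiopoietin receptor Tek (-1.30) was among the falls. Under vehicle 2 rose and 3 fell, again with Emcn (1.57) and Kdr (0.99) rising and Tek among the falls (-1.06). Shares of all tested genes were 14.5% risen and 15.4% fallen under atorvastatin, and 15.5% risen and 12.3% fallen under vehicle.

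Pdpn, a mucin-like glycoprotein, was high early and low late. At 48 h under atorvastatin it read 7.40, 6.33, 9.23 and 7.79 in the LCA of mice 6 to 9, against 6.84, 4.78, 6.22 and 5.41 in their RCA. Every mouse was higher in the LCA, though mouse 7's LCA lay within the RCA range. The difference was 1.87 (SE 0.72, n = 4, adjusted p = 0.0456), and it was lost without mouse 7 (0.0633), mouse 8 (0.194) or mouse 9 (0.16), and in 5 of 7 other settings. These were no filter on low values (0.0654), a second quantile normalization (0.0516), the title code block (0.0935), unpaired arteries (0.059) and a fit of only the groups compared (0.0703). Under vehicle the difference was 1.32 (adjusted p = 0.11), higher in 5 of 5 mice, with an adjusted p of 0.0325 under the title code block and of 0.023 when only the groups compared were fitted. At 2 weeks it was -0.45 under atorvastatin and -0.56 under vehicle, and neither passed the test.

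The 9 other lymphatic genes tested moved both ways at 2 weeks. Under atorvastatin 2 rose and 4 fell, with a median of -0.13, where 14.5% of all tested genes rose and 15.4% fell. Under vehicle 2 rose and 3 fell, with a median of -0.22, where 15.5% rose and 12.3% fell. The risers were the VEGF-C co-receptor Nrp2 (1.02 in each treatment) and the venous and lymphatic nuclear receptor Nr2f2 (1.56 under atorvastatin and 1.26 under vehicle). The valve integrin subunit Itga9 fell in both (-1.19 under atorvastatin and -1.06 under vehicle). These genes are not specific to lymphatic endothelium.

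Each artery was then followed over time, as the mean of both treatments, with different mice at each time. In the LCA, 1 of 9 members changed between 12 h and 24 h, Lyve1 (-1.78, adjusted p = 0.0294), where 1.56% of tested genes did. Between 24 h and 48 h, 1 changed, Cd163 (-1.08, adjusted p = 0.0318), where 47.4% of genes did. The Lyve1 step was lost without vehicle mouse 4 or atorvastatin mouse 6 or 8 at 12 h, or without vehicle mouse 2 or 3 or atorvastatin mouse 6 at 24 h. The Cd163 step was lost without vehicle mouse 1 or atorvastatin mouse 7, 9 or 10 at 24 h, or without vehicle mouse 1 or 3 or atorvastatin mouse 6 or 9 at 48 h. Between 48 h and 2 weeks 7 of 9 changed, where 34.2% of genes did.

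Of those 7, Pdpn fell by 2.82 (adjusted p = 0.000294), F13a1 by 2.36 (adjusted p = 2.8e-05), Cd163 by 1.92 (adjusted p = 0.000633), Lyve1 by 1.19 (adjusted p = 0.0442) and Flt4 by 0.53 (adjusted p = 0.000959). Pf4 rose by 1.26 (adjusted p = 0.0352) and Cbr2 by 0.83 (adjusted p = 0.0459). Between 4 and 6 members changed when any 1 mouse was left out, and 4 did without vehicle mouse 1, 3 or 4 at 48 h, vehicle mouse 5 at 2 weeks or atorvastatin mouse 6 at 2 weeks. Mrc1 changed by 0.62 (adjusted p = 0.221) and Folr2 by -0.58 (adjusted p = 0.133).

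In the RCA, which was not ligated, Cbr2 rose by 0.70 between 12 h and 24 h (adjusted p = 0.0212), the 1 member to change where 24.2% of genes did, and 0 changed without atorvastatin mouse 6 at 12 h. Between 24 h and 48 h 0 members changed, where 1.12% of genes did, and 0 changed between 48 h and 2 weeks, where 0.458% did. Some means were nevertheless lower late than early, that of Lyve1 among them. Its RCA mean over both treatments was 8.72 at 12 h, 8.13 at 24 h, 7.17 at 48 h and 7.07 at 2 weeks. The LCA mean of Lyve1 was 8.01, 6.23, 5.88 and 4.70 at the same times. Over both treatments the LCA mean of Mrc1 was 7.21 at 12 h, 6.35 at 24 h, 6.76 at 48 h and 7.40 at 2 weeks, and its RCA mean was 6.61, 6.28, 5.18 and 4.34 at the same times. The 2-week difference of Mrc1 thus joined an LCA level close to that of 12 h and an RCA level that averaged well below its own at 12 h.

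Cd163 averaged 4.46 ± 0.57 in the LCA at 2 weeks and 7.99 ± 0.89 there at 12 h, and in the RCA 5.0 ± 1.45 at 2 weeks and 7.70 ± 1.35 at 12 h (SD, n = 10 each). F13a1 averaged 4.28 ± 0.62 in the LCA at 2 weeks and 6.63 ± 1.02 there at 12 h, and in the RCA 4.55 ± 1.33 at 2 weeks and 6.53 ± 1.36 at 12 h. Both genes were thus lower late than early in the mean of each artery, though the RCA steps between neighbouring times did not pass the test.

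The change of the LCA minus RCA difference itself between neighbouring times was tested within each treatment. Between 12 h and 24 h it changed for 0 members and for 0% of tested genes in both treatments, and 2 members under atorvastatin and 1 under vehicle had an unadjusted p under 0.05. Between 24 h and 48 h it changed for 2 members under atorvastatin, Mrc1 (2.73, adjusted p = 0.0255) and F13a1 (2.31, adjusted p = 0.0347), where 24.1% of genes changed. Under vehicle 0 members changed there, where 27.8% of genes did. From 48 h to 2 weeks 0 changed under atorvastatin, where 8.32% of genes did, and 1 changed under vehicle, Flt4, where 5.76% of genes did.

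Atorvastatin altered the LCA minus RCA difference of 0 of the 9 members at each time and in the mean over the 4 times. Over all tested genes this interaction was called for 0.00882% at 12 h, 0% at 24 h, 0% at 48 h, 0.0176% at 2 weeks and 0% in the mean. At an unadjusted p under 0.05 there were 1, 1, 0 and 2 members at the 4 times and 1 in the mean. The Lyve1 fall at 2 weeks was larger by 1.63 with atorvastatin than with vehicle, with a 95% interval of the difference of treatments from -2.86 to -0.39 but an adjusted p of 0.936. The vehicle group in that comparison included the exceptional mouse 2. For Cbr2 at 2 weeks the interval was 0.04 to 1.79, and for Mrc1 it was -1.61 to 1.83.

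Within the LCA, 0 members and 0% of tested genes differed between atorvastatin and vehicle at any time or in the mean, with 1 member at an unadjusted p under 0.05, at 12 h. Within the RCA 0 members differed, where the shares of all genes were 0.0441% at 12 h, 0% at 24 h, 0% at 48 h, 0.00882% at 2 weeks and 0.0176% in the mean, and 1 member had an unadjusted p under 0.05, in the mean. Intervals this wide do not show that the treatments acted alike.

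To see which genes varied together between mice of a group, the mean of each group was removed and the 45 pairs of members were correlated over 39 mice in each artery. P-values came from 100000 permutations of mice within groups, adjusted over the 45 pairs. Mrc1, Cd163, Folr2, F13a1 and Pf4, grouped after their values were seen, varied together. Their 10 pairs had Pearson r from 0.45 to 0.77 in the LCA and from 0.68 to 0.95 in the RCA, and all 10 passed in each artery by Pearson's r. By Spearman's rho 9 passed in the LCA and 10 in the RCA. The closest pair was Cd163 and F13a1 in the RCA (r = 0.949, rho = 0.933, permutation p = 1e-05 for each, the smallest that 100000 permutations can give, adjusted p = 7.5e-05 for r, r = 0.936 without the 2 mice farthest from the median of Cd163).

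With these 5 genes Lyve1 had r from 0.39 to 0.67 in the LCA, where 5 pairs passed by Pearson's r and 3 by Spearman's rho, and from 0.38 to 0.52 in the RCA, where 4 passed by Pearson's r and 5 by Spearman's rho. Cbr2 had a median r with the other 6 macrophage members of 0.51 in the LCA, where 5 passed by Pearson's r and 3 by Spearman's rho, and of 0.34 in the RCA, where 2 passed by Pearson's r and 1 by Spearman's rho. Lyve1 and Cbr2 themselves had r = 0.347 in the LCA (permutation p = 0.0622, adjusted p = 0.112) and -0.090 in the RCA (permutation p = 0.631, adjusted p = 0.645). For Lyve1 with Cd163 the LCA values were r = 0.673 (permutation p = 0.00018, adjusted p = 0.00116) and rho = 0.591 (p = 0.00095), and r was 0.587 without 2 mice. In the RCA they were r = 0.520 (permutation p = 0.00093, adjusted p = 0.00279) and rho = 0.556 (p = 0.00087), and r was 0.527 without 2 mice. Lyve1 and Prox1 had r = 0.279 in the LCA (permutation p = 0.15, adjusted p = 0.225, rho = 0.168, r = 0.065 without 2 mice) and -0.056 in the RCA (permutation p = 0.772, adjusted p = 0.772, rho = -0.173, r = 0.038 without 2 mice). Lyve1 and Flt4 had r = -0.121 in the LCA (permutation p = 0.562, adjusted p = 0.684, rho = -0.122, r = -0.121 without 2 mice) and 0.176 in the RCA (permutation p = 0.302, adjusted p = 0.335, rho = 0.206, r = 0.035 without 2 mice). Lyve1 and Pdpn had r = 0.255 in the LCA (permutation p = 0.126, adjusted p = 0.195, rho = 0.227, r = 0.200 without 2 mice). In the RCA this pair passed by both measures, with r = 0.436 (permutation p = 0.0138, adjusted p = 0.0296, r = 0.370 without 2 mice) and rho = 0.421 (adjusted p = 0.041).

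Among the 3 genes taken as lymphatic, Pdpn varied with most of the macrophage genes in the RCA and with fewer of them in the LCA. In the RCA its r with the 7 of them had a median of 0.67, and 6 of 7 passed by either measure, the highest being that with Mrc1 (r = 0.718, rho = 0.716, permutation p = 2e-05 for each, adjusted p = 0.000112 for r, r = 0.725 without 2 mice). In the LCA the median was 0.34, and 3 of 7 passed by Pearson's r and 2 by Spearman's rho. Flt4 had a median r of 0.10 in the LCA, where 0 of 7 passed by Pearson's r and 1 by Spearman's rho, and of 0.30 in the RCA, where 1 passed by Pearson's r and 0 by Spearman's rho. Prox1 had medians of 0.08 in the LCA and -0.19 in the RCA, and 0 of 7 passed in each by either measure. Prox1 and Flt4 had r = -0.059 in the LCA and -0.527 in the RCA. The RCA value passed by Pearson's r (permutation p = 0.0114, adjusted p = 0.0257) but not by Spearman's rho (adjusted p = 0.083). Pdpn with Flt4 (0.294 in the LCA and 0.321 in the RCA) and with Prox1 (-0.217 and -0.188) passed by neither measure. All genes of an artery share 1 flush and 1 array, and the part of that in these correlations was not tested.

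**Figure D4:**
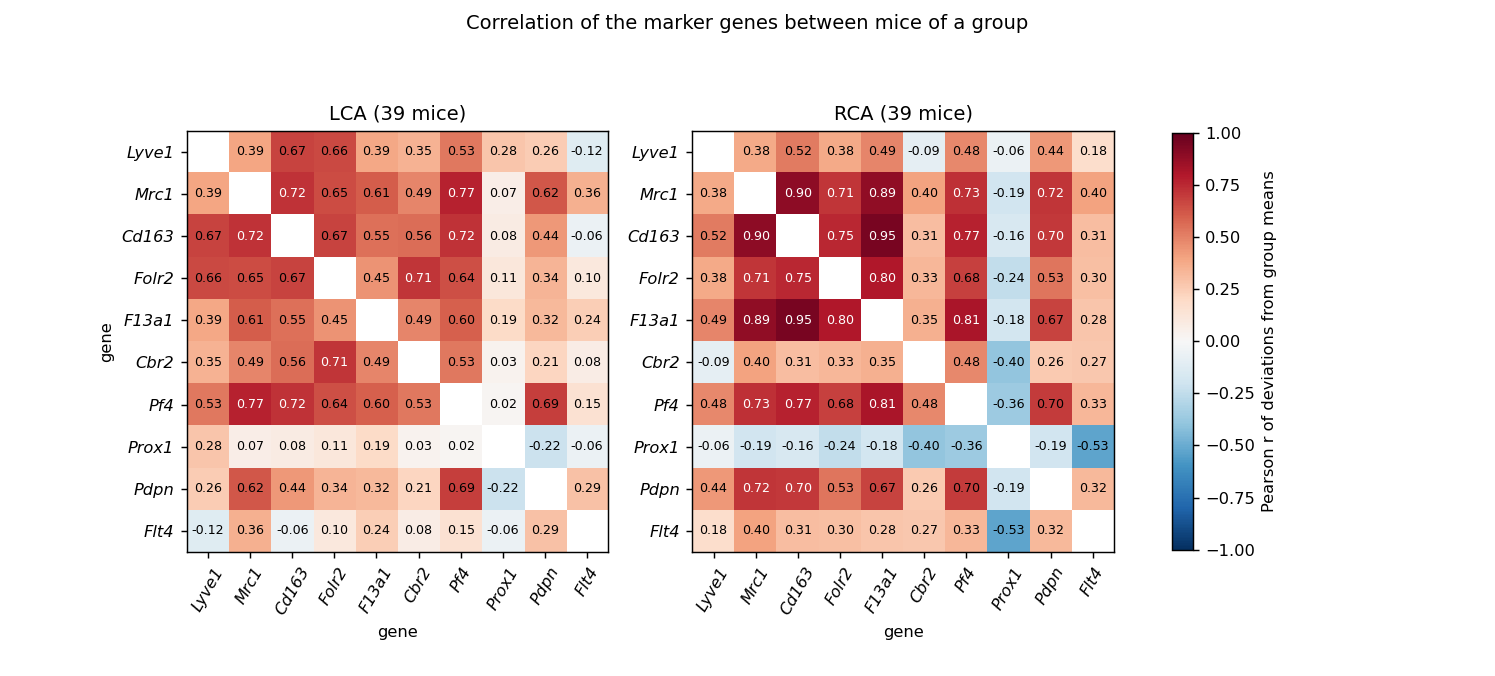
Pearson r between each pair of the 10 genes over 39 mice after removal of group means, LCA on the left and RCA on the right, with red for positive and blue for negative r. The pairs among Mrc1, Cd163, Folr2, F13a1 and Pf4 are red in both arteries (0.45 to 0.77 in the LCA, 0.68 to 0.95 in the RCA), while those of Prox1 with the macrophage genes are pale in the LCA and blue in the RCA.

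As a description, the genes whose values over all 78 arrays were most like those of a member were listed after removal of the means of the 16 groups. For Lyve1 these were Klf4, Gsn, Mal and Mt1, with r from 0.61 to 0.63, slightly above its r of 0.54 with Cd163 on the same measure. For the mean of the 7 macrophage members they were Ednrb, Ccl6, Gpx3 and C5ar1, with r from 0.76 to 0.83. Pdpn was most like Il33, Prg4, Ptx3 and Timp1, with r from 0.79 to 0.87, which exceeds its r of 0.67 with Pf4, its closest member. Flt4 was most like N4bp3, Nme4, Dll4 and Ptov1, with r from 0.55 to 0.60. Prox1, measured at background, was most like Serinc5, Scyl2, Ggh and 1600023N17Rik, with r from 0.55 to 0.59.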

How the data were processed

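The authors' deposited values are log2 expression values on an Affymetrix mouse array, and the submitters' processing notes name RMA as their normalization, with no version. RMA compresses low signals and sets the arrays to a common distribution, so a shift of most genes one way would not be seen. The number of arrays limits the precision.

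Control probe sets (81 of 45118) were dropped. In all, 28898 had 1 symbol in GEO's platform annotation, 551 several and 15588 none; only those with 1 were named, 7180 of the 17097 genes having several probe sets. A gene was tested when above the array median on at least 4 arrays. Groups came from the labels. Limma 3.58.1 (R 4.3.3) was fitted to the LCA minus RCA differences of the 39 mice in 8 groups with a shared variance, and to the LCA and RCA values separately, with Benjamini-Hochberg adjustment over 11344 genes. Within a group each sample is a different mouse. Alternatives were another normalization, other filters, a variance trend, fits to only the groups compared, a title code block, unpaired arteries, the other Lyve1 probe set and leaving out mice.

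Both arteries of a mouse share its number in the titles, and the design text says that they came from each mouse, so arteries were paired; deviations of the 39 pairs correlated at -0.34 to 0.51 (median 0.09, 19 pairs over 0.1). On simulated data for vehicle at 2 weeks over 11344 genes, 20.8% of log2 changes of 0.5, 78% of 1, 98.8% of 2 and 100% of 3 were recovered, and 4.25% of calls were false. The simulation changed a small random set of genes in independent noise. In the data 27.8% of genes were called there and genes share arrays, so these rates may not hold. Recovery was an average over random genes and was not measured for the members. Their standard errors in this group ran from 0.13 (Flt4) to 0.65 (Pdpn). The members, lists and tests were chosen with earlier results of these data known. All 10 members are named. Of each other list, at most 4 called genes of largest change per comparison, and for likeness the 4 genes of highest r, were open to naming. Cd9, and Kdr under atorvastatin, were named outside this rule. The adipocyte and T cell lists were also measured at 2 weeks. Of 3 adipocyte genes 0 changed. Of 5 T cell genes 2 rose under atorvastatin and 4 under vehicle, where 14.5% and 15.5% of all tested genes rose.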

Additional observations from a re-analysis of the deposited data

Results flagged for a closer look

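Over the 10 genes, 16 of 240 sets of values (LCA level, RCA level or LCA minus RCA difference of a group) held 1 mouse far from the others by Dixon's test at the 95% level, 6.67%; chance gives about 1 in 20 groups. Several fell on the same mice. In vehicle mouse 2 at 2 weeks the LCA level was 7.94 for Lyve1 (others 3.74 to 4.95) and 5.78 for Cd163 (others 4.06 to 4.49), and the Prox1 difference was 0.56 (others -0.10 to 0.07). In vehicle mouse 3 at 2 weeks the RCA level of Folr2 was 7.69 (others 4.67 to 5.27), and the differences were -2.92 for Folr2 (the others at most 0.53) and -2.65 for F13a1 (others 0.01 to 0.69). What set these mice apart was not tested.

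The other values came from single genes. The Lyve1 difference of vehicle mouse 1 at 24 h was 0.15 (others -2.44 to -1.76). Folr2 read 4.51 in the RCA of vehicle mouse 2 at 24 h (others 5.89 to 6.07), 7.26 in the LCA of atorvastatin mouse 7 at 24 h (others 5.12 to 5.57) and 5.19 in the RCA of atorvastatin mouse 6 at 24 h (others 6.32 to 6.76). F13a1 read 3.23 in the RCA of vehicle mouse 1 at 12 h (others 6.44 to 7.59). Pdpn read 7.11 in the RCA of vehicle mouse 3 at 24 h (others 5.24 to 5.62), and its difference in atorvastatin mouse 7 at 2 weeks was 0.68 (others -1.02 to -0.57). Flt4 read 7.35 in the LCA of vehicle mouse 4 at 2 weeks (others 7.93 to 8.08), 8.04 in the LCA of atorvastatin mouse 6 at 12 h (others 8.29 to 8.36) and 9.18 in the LCA of atorvastatin mouse 9 at 48 h (others 8.27 to 8.41).

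For 3 members the LCA minus RCA difference differed between neighbouring times by limma. It changed by -0.71 for Flt4 from 48 h to 2 weeks under vehicle (adjusted p = 0.0211), by 2.73 for Mrc1 from 24 h to 48 h under atorvastatin (adjusted p = 0.0255) and by 2.31 for F13a1 over the same step (adjusted p = 0.0347). Without atorvastatin mouse 6 or 10 at 24 h, or mouse 8 or 9 at 48 h, 0 members changed between 24 h and 48 h, and without vehicle mouse 1 or 5 at 48 h, or mouse 4 at 2 weeks, 0 changed from 48 h to 2 weeks.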

How the results depend on the processing

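The alternatives were run on the members, not on the genes of the other lists. The members' 2-week and 24 h rises and falls between the arteries held their direction and their side of the threshold in every setting tried and without any 1 mouse, except Lyve1 under vehicle at 24 h by its other probe set. The 48 h results were less stable, and the cause was not tested. With the title code number as a block the members called were 2 of 9 at 48 h under vehicle (Mrc1 and Pdpn, in place of Cbr2), 2 at 48 h under atorvastatin (5), 0 in the LCA from 12 h to 24 h (1), 0 from 24 h to 48 h (1) and 2 in the RCA from 12 h to 24 h (1). With no replicate block, the arteries unpaired, they were 3 at 48 h under atorvastatin and 1 for the change from 24 h to 48 h under atorvastatin (2), and the other 17 of 19 counts were unchanged. Fitting only the groups compared gave 3 at 48 h under vehicle, 0 at 48 h under atorvastatin, 0 for the change from 48 h to 2 weeks under vehicle (1), 1 under atorvastatin (0), 1 for 24 h to 48 h under atorvastatin, 0 in the LCA from 24 h to 48 h and 0 in the RCA from 12 h to 24 h; these fits used fewer samples. A second quantile normalization gave 2 at 48 h under vehicle and 1 for 48 h to 2 weeks under atorvastatin, no filter gave 1 for 24 h to 48 h under atorvastatin, and leaving out the 2 mice that stood apart gave 2 at 48 h under vehicle. Without 1 mouse at a time the counts ran from 1 to 2 at 48 h under vehicle, 0 to 3 at 48 h under atorvastatin, 0 to 2 and 0 to 1 for 48 h to 2 weeks under vehicle and atorvastatin, 0 to 3 for 24 h to 48 h under atorvastatin, 0 to 1 in the LCA for 12 h to 24 h and for 24 h to 48 h, 4 to 6 in the LCA for 48 h to 2 weeks, and 0 to 2 in the RCA for 12 h to 24 h.

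Values that turned their sign had not passed the test. The title code block gave -0.01 for Folr2 at 24 h and 0.31 at 48 h under vehicle, and under atorvastatin 0.05 for Flt4 at 12 h, -0.31 for Cd163 and -0.07 for Folr2 at 48 h, and 0.22 for Cd163, 0.45 for Folr2, 0.69 for F13a1 and 0.12 for Pdpn at 2 weeks. The second quantile normalization gave -0.03 for Flt4 at 12 h under vehicle, and leaving out the 2 mice gave -0.58 for Cd163 at 48 h. Without 1 mouse at a time the vehicle ranges were -0.40 to 0.93 (F13a1, 12 h), -0.02 to 0.07 (Flt4, 12 h), -0.09 to 0.27 (Folr2, 24 h), -0.07 to 1.31 (Pdpn, 24 h), -0.13 to 0.02 (Flt4, 24 h), -0.58 to 0.74 (Cd163, 48 h), -0.36 to 0.25 (Folr2, 48 h), -0.78 to 0.43 (Cd163, 2 weeks), -0.50 to 0.36 (Folr2, 2 weeks) and -0.43 to 0.40 (F13a1, 2 weeks). Under atorvastatin they were -0.14 to 0.95 (Pf4, 12 h), -0.57 to 0.05 (Pf4, 24 h), -0.52 to 0.33 (Pdpn, 24 h), -0.39 to 0.79 (Cd163, 48 h), -0.17 to 0.79 (Folr2, 48 h), -0.03 to 0.36 (Flt4, 48 h) and -0.63 to 0.28 (F13a1, 2 weeks). Array signal limits Prox1, which never exceeded the median.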
